A study of Mus musculus with 2 samples.

Results

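The keratin genes are described here as measured in cultures of mouse keratinocytes, the cells that build the epidermis, from mice with floxed alleles of Pp6 (Ppp6c in the table), the gene of a phosphatase catalytic subunit. The members were chosen by name alone: every protein-coding gene whose symbol is Krt followed by a number, which gave 53 of the 47719 genes of the table and left out 2 Krt pseudogenes. RNA was sequenced from 1 library of genotype Pp6fl/fl, the control with floxed alleles only, and 1 library of genotype K5.Pp6fl/fl, in which the name K5 stands for the keratin 5 promoter that drives the recombinase in the mouse line. Both came from tail keratinocytes of C57BL/6J mice aged 8 weeks, grown for 3 days in Medium 154CF. The deleting promoter belongs to a keratin gene, Krt5, so deletion depends on the cells in which that promoter is or was active, and the number of mice behind each culture is not given in the labels.

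Keratins are the intermediate filament proteins of epithelia. Each filament is built from pairs of a type I (acidic) and a type II (basic to neutral) chain, and the genes of both types lie in separate clusters, with the type I gene Krt18 beside the type II genes. Epithelial cells switch pairs with their state: Krt5 with Krt14 in the basal layer, Krt1 with Krt10 in the spinous layer, Krt6a and Krt6b with Krt16 and Krt17 in wounded or cultured skin, Krt8 with Krt18 in simple epithelia, Krt4 with Krt13 in mucosa, and a large separate set in the hair follicle.

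The Pp6fl/fl library held 19374772 estimated reads and the K5.Pp6fl/fl library 17361257. Values are given as reads, as CPM, read counts scaled to a common library size, and, where genes are compared with each other, as the deposited FPKM, which are per length. A fold is the CPM in K5.Pp6fl/fl divided by that in Pp6fl/fl, with a 95% exact interval in parentheses. With 1 library per genotype there is no replicate check, no test was made, and every interval covers counting error only. A gene passed the 2-fold rule when its log2 ratio, taken after adding 0.5 CPM to both values, was at least 1 in size, its larger value was at least 1 CPM and its interval excluded 1. The targeted gene Ppp6c had 1074 reads in Pp6fl/fl and 707 in K5.Pp6fl/fl, a fold of 0.733 (0.665 to 0.806), lower in the library labelled as deleted. By FPKM Ppp6c was at 30.6 and 16.8, a larger difference, so its size depends on the measure. The keratinocyte markers were all present in both libraries: the 8 listed genes, among them Col17a1, Sfn and Perp, summed to 17747 and 17323 CPM. In bulk RNA, fewer cells of a type and less RNA per cell cannot be told apart, which holds for every level below.

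Several keratin genes are close copies of each other, which bears on how their reads are divided. The stress keratins Krt6a and Krt6b are the nearest pair among the abundant members. Their coding sequences in the GENCODE M21 annotation (GRCm38) have 1659 and 1662 bases and are identical at 1622 of 1659 aligned bases (97.8%), with an identical run of up to 280 bases. The stretch of 90 coding bases with the most differences, bases 787 to 876 of each coding sequence, is shown. It holds the most bases by which reads can tell the genes apart, and other differences lie outside it. Capitals mark the 12 bases that differ.
Krt6a: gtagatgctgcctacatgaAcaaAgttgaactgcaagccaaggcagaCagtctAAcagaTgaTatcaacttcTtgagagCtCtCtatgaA
Krt6b: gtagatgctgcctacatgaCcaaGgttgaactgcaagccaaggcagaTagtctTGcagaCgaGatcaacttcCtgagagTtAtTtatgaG
Of all 50-base words in the annotated Krt6a transcripts, 57.2% also occur in another gene and 40.3% in Krt6b. For Krt6b the shares were 50.1% and 44.5%. Among the other abundant members the shared part was 37.6% for Krt16, mostly with the pseudogene Gm11597, 13.9% for Krt14, 12.2% for Krt5, and under 5% for Krt17 (4.0%) and Krt90 (3.58%).

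Promoter sequences, 250 bases before to 50 bases after the start, were at hand in RefSeq (GRCm38.p6) for 36 of the 53 genes. All the stress keratins, Krt6a, Krt6b, Krt16 and Krt17, were among the genes without one, so their promoters were not searched. They were searched on both strands for the letters TATAAA, the core of the TATA box, and TGANTCA, the site of AP-1 factors, and no keratin gene held both. TATAAA was in the promoters of 4 of 16 keratin genes with at least 1 CPM and of 15 of the 20 others, most of them hair keratins, against 15.7% of all 27025 genes with such a promoter. Counted from the start, the match began at -26 in Krt10, -206 in Krt84, -3 and -1 in Krt8, and 20 in Krt42. The Krt42 match thus lies after the start. Most of the 15 others had a match that began between -31 and -29. TGANTCA was in 1 of the 36, Krt13, against 8.97% of all genes. The promoter of Krt5 is shown because the promoter of that name drives the deletion, and those of Krt42 and Krt13 because these genes passed the 2-fold rule in opposite directions. Krt36, which passed too, held neither motif, and a second Krt13 promoter, not shown, also held TGANTCA. Capitals mark a match, and a match is only a match of letters. Only the exact letters were searched, so a TATA box with other letters was missed. Lack of a match is thus not lack of a TATA box.
Krt5, chr15:101712856-101713155, minus strand: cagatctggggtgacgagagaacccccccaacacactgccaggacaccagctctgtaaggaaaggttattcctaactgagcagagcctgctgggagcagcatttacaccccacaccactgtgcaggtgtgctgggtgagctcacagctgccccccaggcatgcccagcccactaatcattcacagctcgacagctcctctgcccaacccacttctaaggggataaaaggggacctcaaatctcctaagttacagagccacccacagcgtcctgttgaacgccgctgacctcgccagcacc
Krt42, chr11:100269902-100270201, minus strand: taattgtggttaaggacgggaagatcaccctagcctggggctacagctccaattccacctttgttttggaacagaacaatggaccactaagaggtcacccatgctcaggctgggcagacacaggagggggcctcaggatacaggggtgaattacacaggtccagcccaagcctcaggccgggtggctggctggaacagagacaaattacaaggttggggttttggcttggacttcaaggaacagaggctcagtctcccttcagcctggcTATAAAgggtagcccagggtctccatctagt
Krt13, chr11:100121517-100121816, minus strand: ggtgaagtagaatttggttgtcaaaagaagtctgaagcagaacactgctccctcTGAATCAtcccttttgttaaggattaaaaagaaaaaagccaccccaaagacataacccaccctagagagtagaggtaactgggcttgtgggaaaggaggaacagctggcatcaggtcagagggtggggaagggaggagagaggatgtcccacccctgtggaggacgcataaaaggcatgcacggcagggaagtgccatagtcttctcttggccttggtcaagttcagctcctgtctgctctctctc

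Keratin transcripts made up a large part of both libraries. They took 8.96% of the Pp6fl/fl reads (exact binomial interval 8.95% to 8.97%) and 8.68% of the K5.Pp6fl/fl reads (8.67% to 8.69%), a fold of 0.966 (0.964 to 0.968). Krt14, Krt6a, Krt5 and Krt17 were the 4 genes with the most reads of the whole table in both libraries, in that order, and held 93.2% and 92.5% of all keratin reads. With Krt16, Krt90 and Krt6b the share was 99.6% and 99.4%. All other members shared the rest.

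Of the 53 keratin genes, 24 had at least 1 CPM in a library, 20 had reads below that level and 9 had none in either. Past the 2-fold rule were 2 higher genes, Krt36 and Krt42, against 0.811% of the 12325 genes at 1 CPM or more, and 1 lower gene, Krt13, against 0.195%. At 1.5-fold there were 5 higher (background 3.47%) and 1 lower (1.26%). The interval lay above 1 for 11 genes (background 16.6%), below 1 for 8 (17.4%) and included 1 for 5. The median log2 ratio of the 24 was 0.28, with a range from -1.18 to 1.26, where the median over all genes at 1 CPM or more was -0.01. The 11 keratin genes at 50 CPM or more had a median of -0.02, the same as all genes at that level, with 5 intervals above 1 (background 21.8%) and 6 below (26.3%), and the 13 between 1 and 50 CPM had a median of 0.53 against -0.01 for all 7787 genes in that range. Both groups were set by the larger of the 2 CPM values. Krt75, at 36.8 and 62.6 CPM, is among the 11, and among their intervals above 1, through the K5.Pp6fl/fl library alone. Krt36 is among the 13 through the K5.Pp6fl/fl library alone, and without it the median of the 13 fell to 0.41. These medians are descriptions, and the difference between abundant and rare members was not tested.

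**Figure D1:**
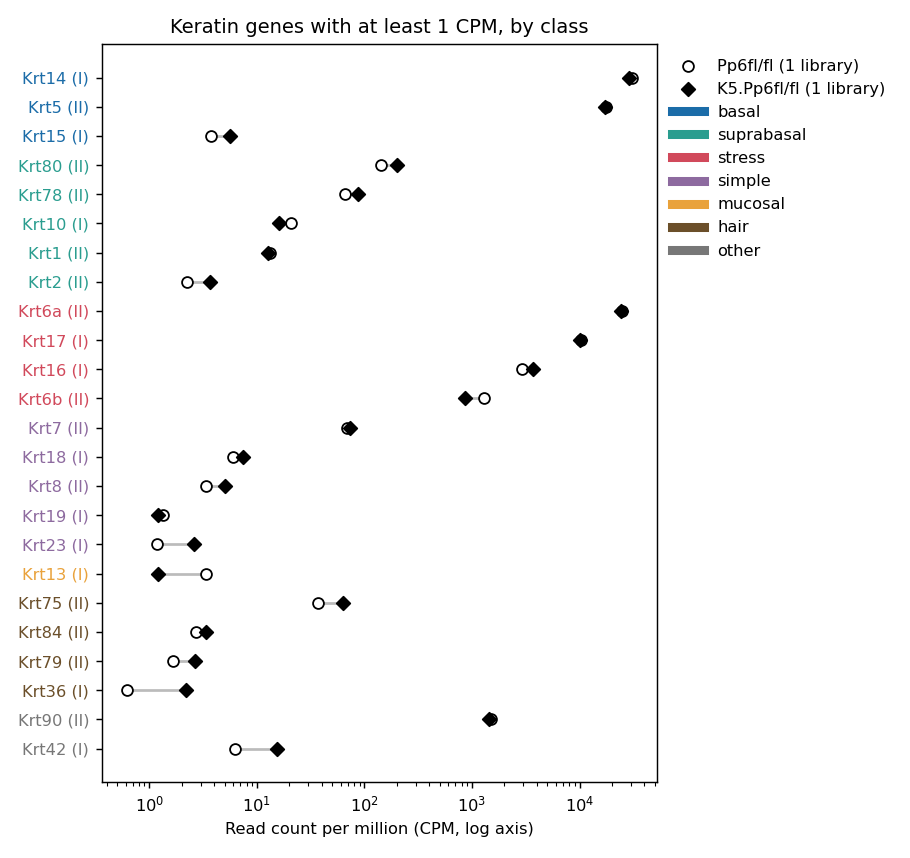
CPM (log axis) of the 24 keratin genes with at least 1 CPM, with an open circle for the Pp6fl/fl library and a filled diamond for the K5.Pp6fl/fl library; label colours give the class and brackets the type. The levels run from about 1 CPM to 30702 CPM, and most pairs of points lie close together on this axis, with Krt36, Krt13 and Krt42 farthest apart.

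The basal keratins, which mark the dividing layer on the basement membrane, were the largest class and slightly lower in K5.Pp6fl/fl. The class summed to 938585 and 793830 reads, a fold of 0.941 (0.939 to 0.944). Krt14, the type I basal chain, was at 30702 CPM in Pp6fl/fl and 28559 in K5.Pp6fl/fl, a fold of 0.93 (0.927 to 0.934). Krt5, its type II partner, was at 17801 and 17100 CPM, giving 0.961-fold (0.956 to 0.965). Per length Krt14 stood at 22055 and 20584 FPKM and Krt5 at 9428 and 9092 FPKM, so the Krt14 level exceeded that of its partner in both libraries. Krt15, a type I keratin of basal and hair bulge cells, was rare here and went the other way, with 72 and 98 reads, a fold of 1.52 (1.11 to 2.08).

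The stress keratins, which epidermis makes after wounding and in culture, were the second class, and their members went in different directions while the sum was level. The class held 760894 and 679705 reads, a fold of 0.994 (0.991 to 0.998). Krt6a, the main type II stress chain, was at 24796 and 24527 CPM, giving 0.989-fold (0.985 to 0.993). Krt17, a type I stress chain also made in hair follicles, was at 10341 and 10041 CPM, giving 0.971-fold (0.965 to 0.977). These 2 genes held most of the class and differed by less than 5%.

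Krt16 and Krt6b were the stress keratins that differed more. Krt16, a type I chain of hyperproliferative epidermis, had 56172 reads in Pp6fl/fl and 63846 in K5.Pp6fl/fl, or 2903 and 3673 CPM, giving 1.27-fold (1.25 to 1.28). Krt6b, the second Krt6 chain, had 24835 and 14928 reads (1284 and 859 CPM), giving 0.669-fold (0.656 to 0.683). Neither reached 2-fold. Summing Krt16 with the similar pseudogene Gm11597 (2373 and 1995 reads) gave a fold of 1.25 (1.24 to 1.27), and summing Krt6b with Gm5478 gave 0.676 (0.663 to 0.69). The sum of Krt6a and Krt6b was at 0.973 (0.97 to 0.977), as Krt6a holds nearly all of it. How the reads common to both genes were divided was not tested. Within the libraries there were 0.0518 Krt6b reads per Krt6a read in Pp6fl/fl and 0.035 in K5.Pp6fl/fl, and 0.281 and 0.366 Krt16 reads per Krt17 read, ratios that do not depend on library scaling.

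**Figure D2:**
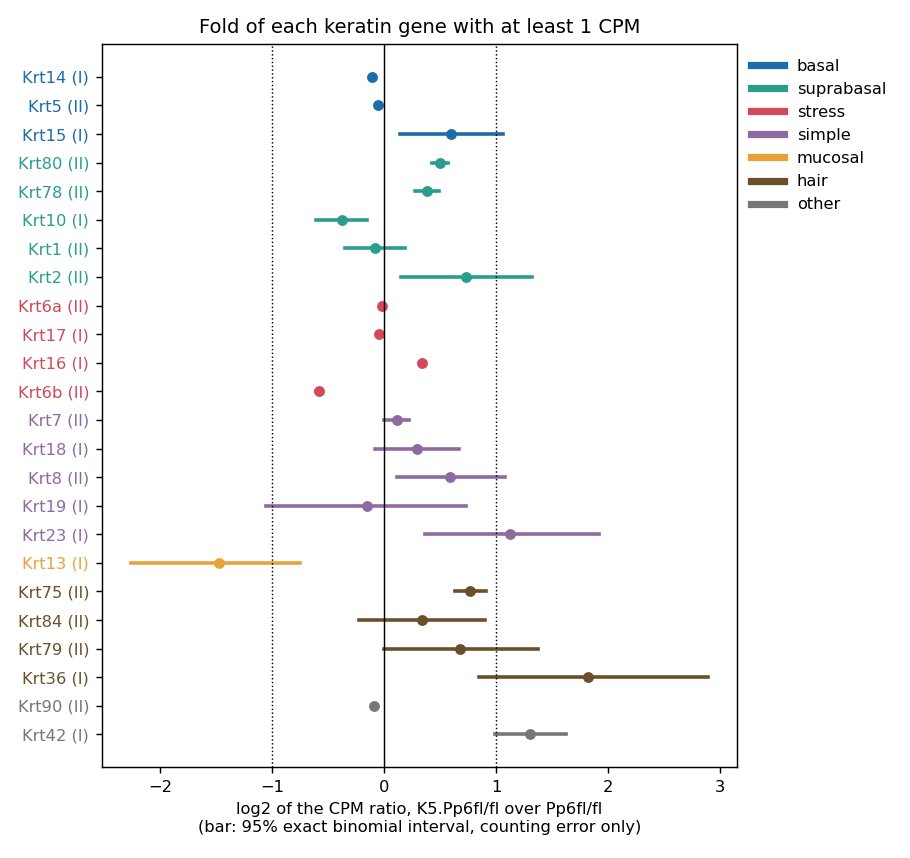
log2 of the CPM ratio, K5.Pp6fl/fl over Pp6fl/fl, for the 24 keratin genes with at least 1 CPM, coloured by class, with bars for the 95% exact binomial interval of counting error and dotted lines at 2-fold. Krt36 (3.52-fold) and Krt42 (2.46-fold) lie right of the upper line and Krt13 (0.36-fold) left of the lower, while intervals of the abundant basal and stress keratins are too short to be seen beside their points.

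The suprabasal keratins, made as cells leave the basal layer, were low in these cultures and split by gene. The 7 genes summed to 245 and 320 CPM, giving 1.31-fold (1.25 to 1.36), and to 1.15 (1.09 to 1.23) without Krt80, the most abundant. Krt80, a type II keratin of differentiating epithelial cells, had 2753 and 3497 reads (142 and 201 CPM), giving 1.41-fold (1.34 to 1.49). Krt78, a type II keratin of suprabasal layers, had 1284 and 1502 reads, a fold of 1.3 (1.21 to 1.4). Krt2, of the upper spinous and granular layers, had 43 and 64 reads, a fold of 1.66 (1.11 to 2.5). These 3 type II genes were higher in K5.Pp6fl/fl.

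The classical spinous pair did not follow them. Krt10, the type I spinous chain, had 405 reads in Pp6fl/fl and 280 in K5.Pp6fl/fl, a fold of 0.77 (0.658 to 0.898). Krt1, its type II partner, had 257 and 218 reads, a fold of 0.944 with an interval that included 1 (0.785 to 1.14). Krt10 was at 11.7 and 9.02 FPKM against 22055 and 20584 FPKM for Krt14, so the spinous pair was a trace beside the basal pair in both libraries. An antisense gene that overlaps Krt10, Gm11940, had 5 and 6 reads, and the sum was at 0.776 (0.665 to 0.905). Krt77 had 4 reads in each library, and Krt9, the keratin of palms and soles, had none.

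**Figure D3:**
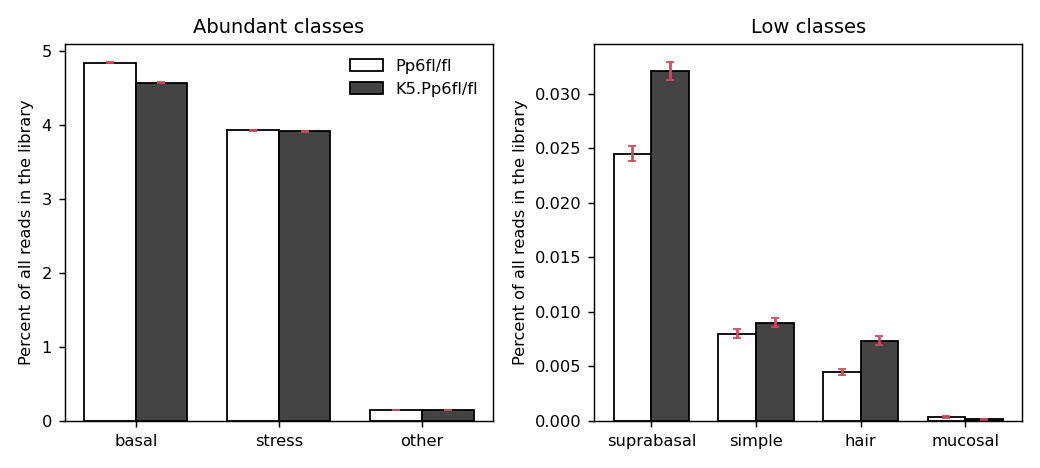
Percent of all reads in the library that fell in each keratin class, for Pp6fl/fl (white bars) and K5.Pp6fl/fl (dark bars), with red bars for the 95% exact binomial interval; the panels have different scales. Basal keratins took 4.84% and 4.57% and stress keratins 3.93% and 3.92%, while suprabasal keratins took 0.0245% and 0.0321% and hair keratins 0.00448% and 0.00737%.

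The simple keratins, of single-layered and glandular epithelia, were a small class with all but 1 detected member at a ratio above 1. The 6 genes summed to 1549 and 1564 reads, a fold of 1.12 (1.05 to 1.21), and to 1.36 (1.14 to 1.63) without Krt7. Krt7, a type II chain of ducts and glands, had 1318 and 1281 reads, a fold of 1.08 (1.0 to 1.17). By FPKM Krt7 went the other way, at 30.6 and 29.3, a fold of 0.959, so its direction depends on the measure. Krt8, the type II chain of simple epithelia, had 65 and 88 reads, a fold of 1.51 (1.08 to 2.11), and its partner Krt18 had 117 and 129 reads, a fold of 1.23 (0.948 to 1.59).

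The remaining simple keratins rested on few reads. Krt23, a type I keratin, had 23 and 45 reads, a fold of 2.18 (1.29 to 3.77). It missed the 2-fold rule because of the added 0.5 CPM (log2 ratio 0.87) and passed it with 0.1 CPM. Krt19, a type I chain of ducts and stem cells, had 26 and 21 reads, a fold of 0.899 (0.481 to 1.66), against 1.39 by FPKM. Krt20, found in gut and in the Merkel cells of skin, had no read in either library. Of 7 Merkel cell markers Chga and Isl1 were at 0, none reached 1 CPM, and the sum was 0.103 and 0.23 CPM. Of 6 glandular markers 3 reached 1 CPM and the 3 others stayed below it. The list summed to 71.4 and 132 CPM, nearly all of it from Epcam alone, at 67.5 and 124 CPM. Epcam, Cldn3 and Cldn7 were thus higher in the same library as Krt8 and Krt23, and their part in this was not tested. Cldn7, with 13 and 25 reads, reached 1 CPM through the K5.Pp6fl/fl library alone.

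Of the mucosal keratins, which line mouth and oesophagus, and the corneal Krt12, Krt13 alone was detected above 1 CPM. Krt13, a type I chain of mucosa, had 65 reads in Pp6fl/fl and 21 in K5.Pp6fl/fl, or 3.36 and 1.21 CPM, giving 0.36-fold (0.209 to 0.596). It was the only keratin gene past the rule in the lower direction, and it did not pass with 2 CPM added or at a floor of 5 CPM. By FPKM it was at 2.49 and 1.23, a fold of 0.495, so reads and FPKM of this gene do not give the same size of difference. On the FPKM scale it did not pass the rule with 1 or 0.5 FPKM added. Its partner Krt4 had 1 and 2 reads, Krt76 had 2 in each library, and Krt12 had none.

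The hair keratins were the class with the most genes and few reads, most of them from Krt75. The 24 genes summed to 868 and 1279 reads, a fold of 1.64 (1.5 to 1.79). Krt75, a type II keratin of the companion layer that lies beside the inner root sheath, had 712 and 1089 reads (36.8 and 62.6 CPM), giving 1.7-fold (1.55 to 1.87). A microRNA model within Krt75, Gm44460, had 106 and 33 reads, which strand-blind reads cannot separate from Krt75. The sum of both had 818 and 1122 reads, a fold of 1.53 (1.39 to 1.67). Without Krt75 the class stood at 156 and 190 reads, a fold of 1.36 (1.09 to 1.69).

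Krt36, a type I hair-type keratin, had 12 reads in Pp6fl/fl and 38 in K5.Pp6fl/fl, a fold of 3.52 (1.8 to 7.41), and passed the rule. At 0.62 and 2.19 CPM it was near the floor, and it did not pass with 2 CPM added or at a floor of 5 CPM. By FPKM its fold was 3.54, and it passed with 0.5 FPKM added and not with 1 FPKM, so the call depends on the added constant. Krt79, of the hair follicle infundibulum, had 32 and 46 reads, a fold of 1.6 (0.997 to 2.6), and Krt84, a type II hair shaft keratin, had 52 and 59, a fold of 1.26 (0.855 to 1.87). Both intervals included 1.

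The other hair keratins stayed below 1 CPM, 15 with reads and 5 without any. The close copies Krt81, Krt83, Krt86 and Krt87 summed to 34 and 16 reads, a fold of 0.524 (0.27 to 0.975). Krt31 to Krt36 summed to 17 and 43 reads, mostly from Krt36. The inner root sheath genes summed to 18 and 20 reads, a fold of 1.24 (0.621 to 2.48), and among them Krt26 had 0 and 8 reads and Krt25 11 and 4. Among 7 markers of hair matrix and inner root sheath, 6 reached 1 CPM, led by Tchh, Gata3 and Msx2, and the list summed to 88 and 94.4 CPM, with every interval including 1. Gata3 is also made in keratinocytes outside the follicle.

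The remaining keratin genes, placed in none of these classes, were led by the abundant Krt90 and included the most firmly counted member past the 2-fold rule, Krt42. Krt42, a type I gene that lies next to Krt17 in the annotation, had 122 reads in Pp6fl/fl and 270 in K5.Pp6fl/fl, or 6.31 and 15.5 CPM, giving 2.46-fold (1.98 to 3.08). It passed the rule under each setting tried, and by FPKM, at 5.09 and 12.6. Of its 50-base words 0.234% occur in another gene, Krt17, which itself was at 0.971-fold. Krt90, a type II gene, was abundant at 1513 and 1425 CPM, giving 0.941-fold (0.926 to 0.958). Krt24 had 10 and 5 reads, Krt222 0 and 1, and Krt88 none.

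Type I and type II transcripts kept nearly the same balance in both libraries. Type II reads were 1.04 per type I read in Pp6fl/fl and 1.05 in K5.Pp6fl/fl, a ratio of ratios of 1.01 (1.0 to 1.01, 95% normal interval on the log scale). Per length, type II stood at 0.723 and 0.728 of type I. Without the most abundant gene of each type, Krt6a and Krt14, the reads ratio went from 1.58 to 1.44, or 0.915 (0.908 to 0.921), so the near balance of the totals rests on these 2 genes. By count of genes, the 11 type I members at 1 CPM or more had 2 past the rule in the higher direction and 1 in the lower, and the 13 type II members had 0. Over all genes at that level the shares were 0.811% and 0.195%, so these counts are too small to compare the types. Krt36, a type I member past the rule, reached 1 CPM through the K5.Pp6fl/fl library alone.

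Textbook partners differed from each other in some pairs. Krt5 per Krt14 differed by little, from 0.58 to 0.599 reads per read, a ratio of ratios of 1.03 (1.03 to 1.04). Krt6a per Krt16 went from 8.54 to 6.68, or 0.782 (0.773 to 0.791), and Krt6b per Krt17 from 0.124 to 0.0855, or 0.689 (0.674 to 0.704). In the stress class as a whole type II per type I reads were at 1.97 and 1.85, or 0.94 (0.934 to 0.946).

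For the rarer pairs the intervals were wide. Krt1 per Krt10 was at 0.635 and 0.779 (ratio of ratios 1.23, 0.969 to 1.55) and Krt8 per Krt18 at 0.556 and 0.682 (1.23, 0.818 to 1.84), both including 1. Krt2 per Krt10 went from 0.106 to 0.229, or 2.15 (1.42 to 3.26). Krt4 with Krt13 and Krt71 with Krt25 had 1 and 2 reads for the type II chain, too few to compare.

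**Figure D4:**
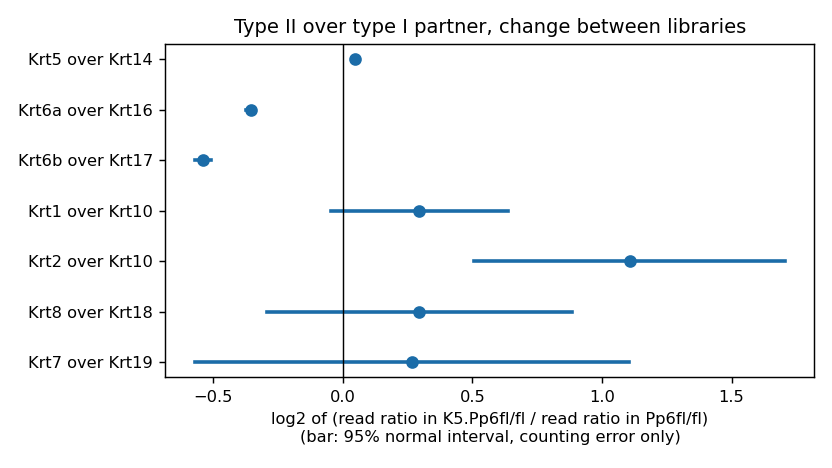
Change in the ratio of reads between type II and type I partner genes, as log2 of the K5.Pp6fl/fl ratio over the Pp6fl/fl ratio, for 7 partner pairs, with bars for the 95% normal interval of counting error. Both stress pairs lie left of 0 and Krt5 over Krt14 close to it, while the bars of Krt1 over Krt10, Krt8 over Krt18 and Krt7 over Krt19 cross 0.

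The side of 1 on which neighbouring keratin genes lay differed between the clusters. Of 6 pairs of adjacent type I cluster genes that both had at least 1 CPM, 0 were on the same side, and of 9 such pairs in the type II cluster 6 were, without regard to whether the intervals included 1. These counts rest on reads, and the pair of Krt36 and Krt13 enters only because Krt36 reached 1 CPM through the K5.Pp6fl/fl library. By FPKM Krt19 (1.39) and Krt7 (0.959) changed side, which changes the count in both clusters. In the type I cluster Krt36 and Krt13 follow each other and were at 3.52-fold and 0.36-fold, and Krt16, Krt17 and Krt42 follow each other at 1.27, 0.971 and 2.46. In the type II cluster Krt75, Krt6b and Krt6a are the next keratin genes to each other, at 1.7, 0.669 and 0.989, while Krt79, Krt78, Krt8 and Krt18 follow each other at 1.6, 1.3, 1.51 and 1.23. The difference between the clusters was not tested, and the share over neighbouring genes elsewhere was not counted.

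Genes that work with keratin filaments were set beside them from lists. Of 18 measured linkers and keratin-binding genes, all reached 1 CPM, with 8 intervals above 1 (background 16.6%), 5 below (17.4%) and a median log2 ratio of 0.10. Flg2, a filaggrin relative of the outer layers, passed the 2-fold rule with 10 and 35 reads (background 0.811%). At 0.517 and 2.01 CPM it reached 1 CPM through the K5.Pp6fl/fl library alone. The same holds for Tchhl1, at 0.724 and 1.09 CPM. The count of 18 and the median of 0.10 include both genes. Dsp, which ties keratin to desmosomes, was at 6471 and 6596 CPM, giving 1.02-fold (1.01 to 1.03). The hemidesmosome linkers of the basal cell were lower, Dst at 0.773 (0.762 to 0.785) and Plec at 0.845 (0.833 to 0.857). The envelope linkers periplakin, Ppl, at 1.47 (1.41 to 1.53) and envoplakin, Evpl, at 1.22 (1.17 to 1.27), were higher, and so was the keratin-binding gene Pof1b at 1.55 (1.49 to 1.62). Dsp, Dst, Plec, Evpl, Ppl and Pof1b were named after their values were seen.

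Of 24 transcription factors linked to keratin genes, 23 reached 1 CPM, with 7 intervals above 1 (background 16.6%), 5 below (17.4%), a median of 0.03 and none past 2-fold. The most abundant were Trp63, the p63 gene that upholds basal keratins, at 996 and 773 CPM, giving 0.776-fold (0.759 to 0.793), and Sox9 at 0.948 (0.92 to 0.978). Of 18 other intermediate filament genes 8 reached 1 CPM, none past 2-fold, with a median of 0.09. Lamin A, Lmna, was at 0.987 (0.968 to 1.01) and Iffo2 at 0.931 (0.913 to 0.949), and vimentin, Vim, the filament of mesenchymal cells, had 19 and 21 reads. At 0.982 and 1.21 CPM Vim reached 1 CPM through the K5.Pp6fl/fl library alone. The count of 8 and the median of 0.09 include it through that library.

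The authors' deposited table gives its own comparison of the libraries. It lists 10 of the 53 keratin genes with an FDR under 0.05 and calls 3 of them significant and up, Krt23, Krt36 and Krt42, and 0 significant and down. Over all 47719 genes it calls 136 significant and up and 34 significant and down. How many of all genes have an FDR under 0.05 was not counted, so the 10 has no background beside it. Of the 47719 genes 12325 reached 1 CPM, and of the 53 keratin genes 24 did. The called counts of the 2 sets therefore do not show an excess among keratin genes. In the authors' deposited table Krt6b stands at -0.57 on the log2 scale (FDR 1.57e-28) and Krt75 at 0.77 (FDR 2.41e-18), and neither is called. Krt42 stands at 1.29 (FDR 3.17e-14) in the authors' deposited table. These values rest on 1 library per genotype.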

How the data were processed

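RNA sequencing of 2 libraries, 1 per genotype by the genotype label, was analysed from 1 deposited table. Per the submitters' processing notes RSEM, edgeR and the build mm8 were used, without roles or versions; aligner and annotation: not given in the sources used here. Libraries were made from oligo(dT)-selected RNA without strand marks, per the labels' protocols. The deposited estimated counts carry a library-wide constant: divided by it, 97.4% of values under 100 reads were whole within 0.01 reads in each library. They were divided by it and rounded. FPKM values, log2 fold changes, p-values and FDR were deposited by the authors and used as they stand. Symbols were matched for 47219 of 47719 IDs through a GENCODE table (GRCm38), a build other than the one named, so the files give no coordinates here; the coordinates printed belong to the RefSeq promoters.

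CPM used TMM factors (edgeR 4.0.16, R 4.3.3). Intervals are Clopper-Pearson (scipy 1.17.1) and cover counting error only, as reads carry no molecular identifiers. The code was tested on simulated data. Keratin classes, partners and lists were chosen with earlier results of these data known. Named were all keratin genes at 1 CPM or more, list members past the 2-fold rule (the 2 most abundant where none passed), and of each marker list up to 3 of the most abundant at 1 CPM or more and those at 0. Vim, Krtdap, Tchhl1, Tyr and 6 linkers were named outside this rule, after their values were seen. Folds by FPKM are plain ratios; in the 2-fold rule 1 FPKM was added. Alternatives were other scalings (DESeq2 1.42.0 size factors among them), pseudocounts, floors, FPKM, sums of close copies and sums without the top gene.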

Additional observations from a re-analysis of the deposited data

How the results depend on the processing

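With 1 library per genotype no library could be left out, and no paired analysis was possible because each genotype has a single sample. The 3 other scalings (total reads, DESeq2 size factors, reads outside the keratin genes) moved no class sum and none of the 24 single folds beyond its counting interval. By FPKM Krt7 reversed, at 0.959, and Krt19, whose interval included 1, also changed side, at 1.39; the other folds kept their direction. With 2 CPM added, at a floor of 5 CPM, and by FPKM with 1 FPKM added and no interval, 1 keratin gene was past the rule in the higher direction, Krt42, and 0 in the lower. By FPKM with 0.5 FPKM added, chosen after seeing the data, there were 2 higher, Krt36 and Krt42, and 0 lower. Pseudocount and floor enter the rule and not the folds. The keratin share by FPKM was 6.95% and 6.8%; without microRNA models, an alternative chosen after seeing the data, it was 8.17% and 7.78%, as 6 such short models on keratin genes took 11.8% and 9.68% of all FPKM from 255 and 152 reads. Without Krt14 the share of reads was 5.89% and 5.82%. Class sums without their most abundant gene were 0.961 for basal (without Krt14), 1.15 for suprabasal (Krt80), 1.36 for simple (Krt7) and 1.36 for hair (Krt75), and they reversed for stress (1.0 without Krt6a, also 1.0 by FPKM), mucosal (1.48 without Krt13, from 3 and 4 reads) and the remaining genes (2.33 without Krt90). The type II to type I ratio of ratios reversed to 0.915 without Krt6a and Krt14. Genes near 1 CPM rest on about 20 reads, so their folds are loose.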

Other observations

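The keratin-associated proteins, the matrix between hair shaft filaments, were near absent: of 57 Krtap genes 16 had any read, none reached 1 CPM, and together they had 30 reads in Pp6fl/fl and 24 in K5.Pp6fl/fl. Krtdap, a gene of differentiating keratinocytes that shares the prefix only, had 1048 and 1188 reads, a fold of 1.26 (1.16 to 1.37). Of 6 melanocyte markers 4 reached 1 CPM, with Tyrp1, Pmel and Dct the most abundant, and the list summed to 7.7 and 15.4 CPM. Tyr, with 13 and 21 reads, reached 1 CPM through the K5.Pp6fl/fl library alone. Fibroblast markers summed to 3.46 and 2.7 CPM, with Thy1 the only one of 7 at 1 CPM and Lum at 0. None of 6 immune markers reached 1 CPM, and Cd207, Cd3e, Lyz2 and Ptprc were at 0. Of 7 sebaceous markers Plin2 and Scd1, which keratinocytes also make, carried the sum of 437 and 475 CPM, and Awat1 was at 0.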
